A study of Arabidopsis thaliana with 12 samples.

Results

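Transcript levels in Arabidopsis thaliana seedlings of the xrn3-8 line were compared between 0 min and 60 min of cordycepin. The comparison rests on 6 of the 12 arrays of the series, chosen by their labels: 3 of xrn3-8 at 0 min, labelled as control, and 3 of xrn3-8 after 60 min in 150 mg/l cordycepin. The other 6 arrays hold Col-0, the reference accession, in the same 2 states and serve here for the test of whether a change differed between the genotypes. All 12 samples were whole seedlings of 14 days grown on MS plates in long days. All 22746 probe sets other than the Affymetrix controls were tested. The probe table gives 1 gene for 13513 of them, several for 503 and none for 8730, which are unnamed here; 13356 genes have a probe set of their own.

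Cordycepin resembles adenosine but lacks the group to which the next nucleotide is joined, so an RNA chain ends where it is built in; it is used to block new transcription and to watch existing transcripts disappear. XRN3 is a nuclear 5′ to 3′ exoribonuclease of plants that degrades the RNA left on RNA polymerase II after a transcript has been cleaved, a step of transcription termination. In a blocked tissue, a transcript with a short life is known to drop against the others, while a stable one appears to gain on an array that reports relative signal.

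The labels list no mock-treated seedlings at 60 min, so cordycepin cannot be told apart from time and handling. In whole seedlings, fewer cells of a type and less RNA per cell cannot be told apart either. XRN3 has no named probe set here, so whether its transcript is altered in the line was not checked, and xrn3-8 stands for 1 allele. Of the 10 shoot markers listed, only RCA (Rubisco activase) was measured, at a mean log2 signal of 13.02 before and 13.03 after. All 5 root markers measured were uncalled, with changes from -0.22 to 0.11, where 40.4% of all probe sets were called. AT4G25250 and GH9C1 had means of 2.73 and 2.98 before, below the arrays' lower quartile, which leaves little room for a loss. Under hybridization control centring of the arrays 1 was called lower, and under Bacillus subtilis control centring all 5 were (median -0.47). Of all 22746 probe sets, 5438 and 17244 were called lower under these scalings. No seed or flower marker was measured. Within a group, log2 signals of 2 arrays correlated at 0.9952 to 0.9977, and the third array at 60 min received the lowest array weight of the 12, 0.46. The arrays' median log2 signal was 4.80 to 4.81 before and 4.63 to 4.69 after, and the lower quartile 3.0 to 3.02 before and 3.07 to 3.10 after.

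After 60 min, large differences were nearly all losses. Of the 22746 probe sets, 850 (3.74%) were called and at least 2-fold lower, against 45 (0.198%) called and at least 2-fold higher, or 895 (3.93%) in all. Losses of at least 4-fold were found on 173 probe sets and of at least 8-fold on 26, while no probe set rose 4-fold. The log2 change, signal after minus signal before, ran from -4.47 to 1.65, so that the deepest loss far exceeded the largest gain. Among genes with a name, 414 fell and 28 rose by at least 2-fold.

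Small differences ran the other way on the deposited scale. With limma and Benjamini-Hochberg adjustment over all probe sets, 9183 (40.4%) were called at an adjusted p under 0.05, 5570 of them higher (24.5%) and 3613 lower (15.9%), so that 60.7% of the calls were higher. The 3 arrays before and 3 after did not overlap on 8755 called probe sets (38.5%). This balance depended on the scaling of the arrays. Centred on the 18 hybridization controls, 5848 were called, 410 higher and 5438 lower (7.01% higher). Centred on the 27 Bacillus subtilis controls, 17481 were called, 237 higher and 17244 lower (1.36% higher). Centring on 10 housekeeping genes gave 7450 calls, 1990 higher and 5460 lower (26.7% higher). Centring on each array's median gave 14346, 11616 higher and 2730 lower (81.0% higher). The median change over the 22746 probe sets was 0.093 on the deposited scale, -0.173, -0.392 and -0.069 under the hybridization control, Bacillus and housekeeping scalings, and 0.237 under median centring. The directions of small changes given below are therefore relative to the average probe set of the deposited values, and a change near 0 has no settled sign. Counts of list members under another scaling are to be read against the counts of all probe sets under that scaling.

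**Figure D1:**
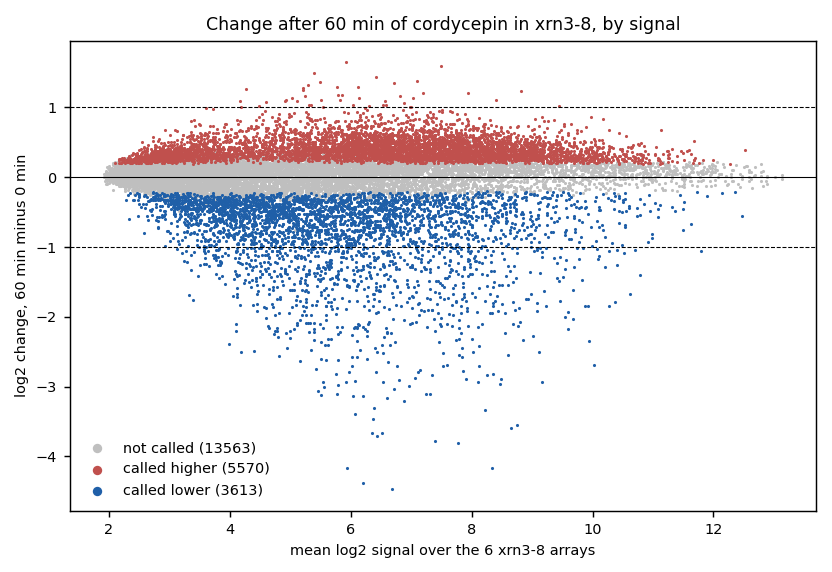
Log2 change in xrn3-8 (60 min minus 0 min) against the mean log2 signal of the 6 xrn3-8 arrays, 1 point per probe set; red points were called higher (5570), blue points called lower (3613), and dashed lines mark a 2-fold difference. Losses reach -4.47, while gains end at 1.65.

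The deepest named loss was that of AT5G61590, listed in the reference as DEWAX, a transcription factor that represses wax synthesis genes. Its log2 signal was 8.98, 9.10 and 8.66 before and 4.56, 4.32 and 4.45 after, a change of -4.47 ± 0.14 (SE, n = 3 arrays per group; limma adjusted p = 7.31e-13). All arrays after cordycepin lay more than 4 log2 units below all arrays before it. AT4G10270 went from 8.27, 8.73 and 8.15 to 4.16, 3.95 and 3.91 (-4.38 ± 0.13, adjusted p = 4.49e-13). AT3G55840 went from 9.40, 9.19 and 9.26 to 5.81, 5.59 and 5.10 (-3.78 ± 0.15). For both genes the groups were far apart, and the spread within a group was at most 0.36 (SD).

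AT3G19680 started highest among the 12 largest losses, at 10.63, 10.42 and 10.55, and ended at 6.91, 6.95 and 7.10 (-3.55 ± 0.09, adjusted p = 1.22e-13). AT3G10040, listed as HRA1, an attenuator of the response to low oxygen, went from 7.06, 7.46 and 7.29 to 4.15, 4.35 and 4.41 (-2.97 ± 0.11). The other 7 of the 12 largest losses, all without a symbol in the reference, were AT4G28240 (-3.71), AT5G25280 (-3.67), AT1G69760 (-3.47), AT5G60680 (-3.13), AT5G07580 (-3.11), AT4G37240 (-3.07) and AT1G68500 (-3.01). In each of the 12 the 3 arrays before lay above the 3 after, and the lower mean stayed above the lower quartile of the arrays.

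Among genes with a symbol, the largest loss was that of STZ, a regulator. STZ, also ZAT10, a zinc finger repressor of stress responses, went from 9.90, 9.90 and 9.83 to 7.33, 7.27 and 7.38 (-2.55 ± 0.08, adjusted p = 7.69e-13). ARL (ARGOS-like), a promoter of cell expansion, went from 8.82, 9.02 and 8.98 to 6.60, 6.74 and 6.80 (-2.23 ± 0.09). BRH1, a RING-H2 protein gene that responds to brassinosteroid, changed by -2.09 ± 0.09. UGT74B1, a glucosyltransferase of glucosinolate synthesis, changed by -1.80 ± 0.08 and is the one enzyme of small-molecule metabolism among the 10 largest losses with a symbol. NRPD7, a subunit gene of RNA polymerase IV, is described with the polymerases.

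Gains were smaller and more scattered. AT5G48430 had the largest, from 4.84, 5.07 and 5.40 to 6.60, 6.58 and 7.07 (1.65 ± 0.17, adjusted p = 9.26e-07). AT2G44010 went from 4.71, 4.75 and 4.48 to 6.04, 6.19 and 6.18 (1.49 ± 0.12), and AT2G42350 from 5.68, 5.67 and 5.77 to 7.16, 7.08 and 7.16 (1.43 ± 0.09). The arrays of these 3 genes did not overlap between the times. POL (POLTERGEIST), a protein phosphatase of stem cell signalling, was the largest gain with a symbol, from 4.46, 4.90 and 5.10 to 6.0, 6.19 and 6.34 (1.36 ± 0.14). The other 8 of the 12 largest gains have no symbol and lay between 1.18 (AT2G37750, AT4G39270) and 1.38 (AT5G11850), with AT4G16100 at 1.35, AT1G51790 at 1.30, AT3G24840 at 1.27, AT5G08110 at 1.25 and AT1G53540 at 1.24.

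Hop3, a co-chaperone that joins Hsp70 to Hsp90, went from 7.36, 7.85 and 8.31 to 8.88, 8.93 and 9.04 (1.11 ± 0.17, adjusted p = 9.75e-05). Its 3 arrays before were spread over nearly 1 log2 unit and its 3 arrays after lay close together. ATHSP22.0, a small heat shock protein gene, went from 4.78, 5.05 and 5.28 to 6.02, 6.08 and 6.03 (1.01 ± 0.13). TPLATE, a subunit of an endocytic adaptor complex that acts at the cell plate, rose by 1.03 ± 0.11. The other gains with a symbol were the plastid genes rpoB (0.93 ± 0.20) and atpI (0.89 ± 0.20), ATGP4 (0.91), the glutathione transferase gene ATGSTF13 (0.90), the ubiquitin protease gene UBP25 (0.88), ATCES1 (0.86) and TBL41 (0.86), of a family of wall polysaccharide acetylation proteins. Of the 44 genes named so far, the 12 largest named losses and gains and the next 10 of each with a symbol, none changed direction under the refits and the 4 other scalings run, and all kept their call but atpI, which was uncalled under Bacillus control centring.

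**Figure D2:**
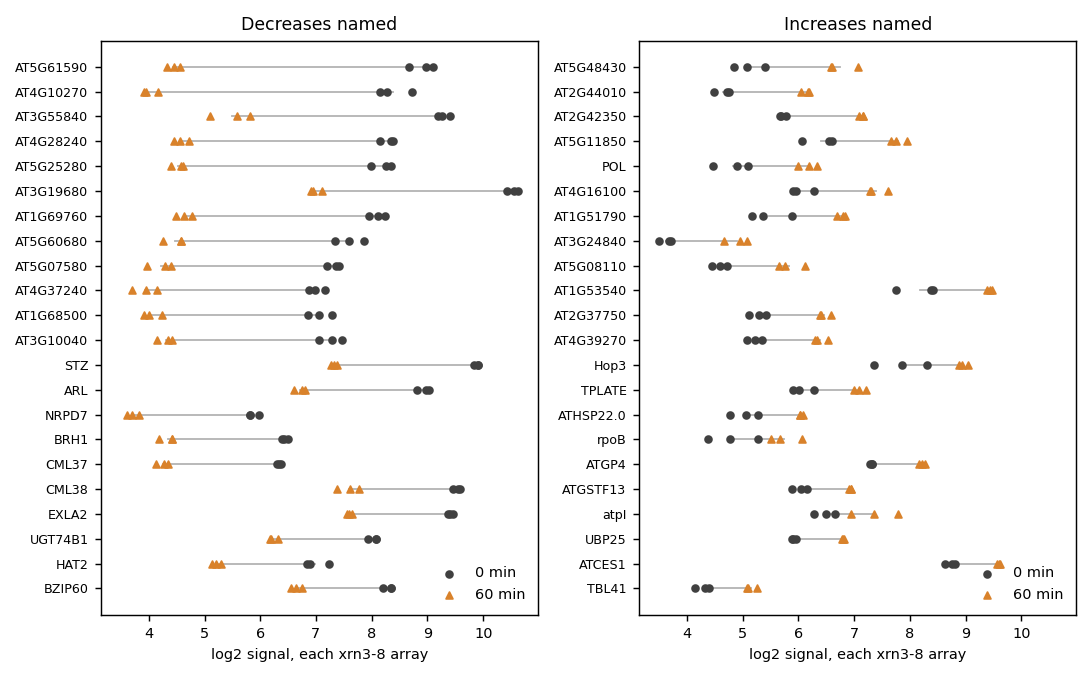
Log2 signal of each xrn3-8 array at 0 min (dark circles) and 60 min (orange triangles) for the 12 largest named losses and the 10 largest further losses with a symbol (left), and the gains chosen likewise (right); grey lines join the means. The 3 arrays of the 2 times do not overlap for any of them, and losses span up to 4.47 log2 units against 1.65 for gains.

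Immediate-early genes switch on within minutes of touch, wounding or stress without new protein synthesis, and their transcripts are known to be short-lived. All 7 measured members of this list, of 41 listed, fell, where 15.9% of all probe sets did. Their median change was -2.09 against 0.093 for all probe sets. Besides AT5G61590, STZ and AT5G07580, the list holds CML37 and CML38, calcium sensors related to calmodulin, and the defence regulators WRKY22 and WRKY53. CML37 went from 6.34, 6.37 and 6.30 to 4.34, 4.28 and 4.13 (-2.09 ± 0.10), and WRKY22 from 8.68, 8.47 and 8.80 to 6.78, 7.24 and 7.21 (-1.57 ± 0.12, adjusted p = 3.75e-08). WRKY53 changed least, by -0.44 ± 0.13, its arrays before and after overlapped, and without the third array at 0 min or the second at 60 min its change was -0.33 and uncalled. The list was written with earlier results of these data known.

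Auxin switches on a small set of genes at once, among them Aux/IAA repressors and GH3 enzymes, which join auxin to amino acids. Of the 7 early auxin genes measured, 5 fell and 1 rose, against 15.9% and 24.5% of all probe sets, with a median of -1.27. HAT2, a homeodomain factor induced by auxin, went from 6.84, 7.23 and 6.89 to 5.2, 5.14 and 5.29 (-1.78 ± 0.11, adjusted p = 2.3e-09). GH3.3 went from 6.77, 7.04 and 7.29 to 5.6, 5.76 and 5.54 (-1.40 ± 0.13). WES1, also GH3.5, fell by 1.27 and the repressor gene IAA29 by 1.0, the latter to a mean below the lower quartile. ARL is the fifth that fell. GH3.1 was the exception, with 0.36 ± 0.10 on a mean signal of 2.79 before that lies below the lower quartile of the arrays. Its call was lost under hybridization control and housekeeping centring, and its change was -0.13 and uncalled under Bacillus control centring. Under that last scaling 6 of the 7 were called lower, where 17244 of all 22746 probe sets were. AT2G18010, at a mean log2 signal near 2.5 at both times, was uncalled.

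Calmodulin-like proteins sense calcium, and 5 of their 8 genes fell, against 15.9% of all probe sets, with a median of -0.88. After CML37, CML38 had the largest change, from 9.55, 9.58 and 9.46 to 7.77, 7.61 and 7.38 (-1.94 ± 0.10, adjusted p = 1.61e-10). AT1G76640 changed by -1.74 ± 0.15, CML23 by -0.98 ± 0.10 to a mean below the lower quartile, and CML30 by -0.78 ± 0.10. The 3 others, CML41 (0.15), CML42 (0.12) and CML43 (0.07), were uncalled and their arrays overlapped between the times. Under Bacillus control centring all 8 were called lower, where 17244 of all 22746 probe sets were.

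Plant U-box proteins are ubiquitin ligases, of which PUB22 and PUB23 dampen immune and drought signalling. In this family 6 of 9 fell and 0 rose, against 15.9% and 24.5% of all probe sets, with a median of -0.48. Under Bacillus control centring all 9 were called lower, where 17244 of all 22746 probe sets were. PUB26 went from 6.01, 5.90 and 5.62 to 4.24, 4.11 and 4.34 (-1.61 ± 0.10, adjusted p = 3.84e-09), PUB23 changed by -1.27 ± 0.08, PUB22 by -1.20 ± 0.10 and PUB25 by -0.91 ± 0.10. WRKY factors, regulators of defence and senescence, had 4 of 7 lower and 0 higher on the deposited scale, and all 7 lower under Bacillus control centring. Under median centring 3 were lower and 1 higher, where 2730 and 11616 of all probe sets were. WRKY6 changed by -0.88 ± 0.11 and ZAP1 by -0.68 ± 0.08, while WRKY20, WRKY42 and WRKY47 were uncalled, the last with 0.30 and a call without the first array at 60 min.

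Histone genes are read mainly while DNA is copied. Here 4 of 6 fell, all of them genes of histone H2B, against 15.9% of all probe sets. Under hybridization and Bacillus control centring all 6 were called lower, and under median centring 3. Of all 22746 probe sets, 5438, 17244 and 2730 were called lower under these scalings. HTB2 went from 6.26, 6.42 and 6.02 to 4.81, 4.97 and 5.03 (-1.30 ± 0.10, adjusted p = 4.41e-08), HTB1 changed by -1.18 ± 0.08 and HTB11 by -0.63 ± 0.11. HTB4, at -0.22 ± 0.08, lost its call without any 1 of 5 of the 6 arrays (-0.20 to -0.23). HTR12, the centromeric histone H3 gene, and HIS1-3, a linker histone gene, were uncalled at -0.15 and -0.17. The medians of the 6 lists described so far stayed below 0 under every scaling run.

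Families with a broader range of roles held a tail of losses around a median near 0. Of 51 UDP-glycosyltransferase genes, which attach sugars to hormones and secondary metabolites, 18 fell and 6 rose, against 15.9% and 24.5% of all probe sets, with a median of -0.05. Under hybridization control centring 25 were called lower and 1 higher, under Bacillus control centring 44 and 1, and under median centring 12 and 18. The like counts over all 22746 probe sets were 5438 and 410, 17244 and 237, and 2730 and 11616. The losses were led by UGT74B1, UGT73B1 (-1.54 ± 0.12), UGT85A2 (-1.23 ± 0.09) and GT72B1 (-1.01 ± 0.13). The gains were led by SGT (0.70 ± 0.07), UGT76E2 (0.56 ± 0.08), UGT80B1 (0.48 ± 0.09) and UGT71C1 (0.47 ± 0.15). SGT and UGT80B1 encode sterol glucosyltransferases. UGT71C1 had overlapping arrays and was uncalled, at 0.29 to 0.46, without the first or the third array at 0 min or the third at 60 min. UGT80B1 and UGT71C1 changed sign under Bacillus control centring, at -0.01 and -0.02.

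Expansins loosen the cell wall, and 6 of 19 of their genes fell while 2 rose, against 15.9% and 24.5% of all probe sets, with a median of -0.09. Under hybridization and Bacillus control centring 9 and 16 were called lower and 0 higher, where 5438 and 17244 of all 22746 probe sets were lower. Median centring gave 4 each way, where 2730 of all were lower and 11616 higher. EXLA2 went from 9.41, 9.36 and 9.46 to 7.64, 7.60 and 7.55 (-1.81 ± 0.11, adjusted p = 1.07e-09). EXLA3 changed by -1.41 ± 0.14, EXPA8 by -1.02 ± 0.13 and EXLA1, the strongest of them at a mean of 11.39 before, by -0.93 ± 0.10. The expansin-like gene EXLB1 was uncalled at -0.12. EXPA16 rose by 0.59 ± 0.10. EXPA21 had 0.32 on a signal near background, was uncalled at 0.25 without the second array at 60 min, and was -0.16 under Bacillus control centring.

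Among 22 bZIP factor genes 6 fell and 2 rose, against 15.9% and 24.5% of all probe sets, with a median of -0.03. Under hybridization and Bacillus control centring 10 and 19 were called lower and 0 higher, where 5438 and 17244 of all 22746 probe sets were lower. Median centring gave 5 each way, where 2730 of all were lower and 11616 higher. BZIP60, which is activated by splicing of its RNA when proteins misfold in the endoplasmic reticulum, went from 8.35, 8.20 and 8.35 to 6.74, 6.55 and 6.64 (-1.66 ± 0.08, adjusted p = 8.32e-11). BZIP28, released from the same membrane under the same stress, changed by -0.46 ± 0.08, whereas its relative BZIP17 had 0.35 ± 0.09, and -0.13 and no call under Bacillus control centring. BZIP61 (-1.61 ± 0.12) and BZIP53 (-0.99 ± 0.07), a factor of amino acid and seed genes, were the next losses, and bZIP44 had 0.38, or -0.11 under Bacillus control centring. The medians of the UDP-glycosyltransferase, expansin and bZIP lists turned above 0 under median centring, at 0.09, 0.05 and 0.11.

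**Figure D3:**
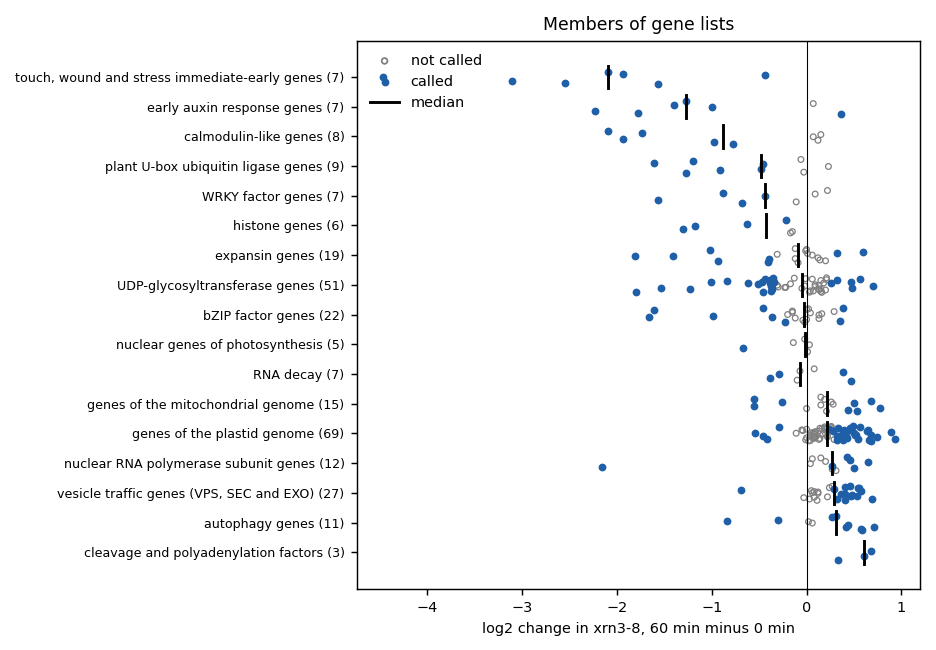
Log2 change in xrn3-8 of each measured member of the gene lists, with the number measured in brackets; filled points were called, open points were not, and black bars are medians. Among the lists drawn, immediate-early genes have the lowest median (-2.09) and cleavage and polyadenylation factors the highest (0.60).

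Genes of the plastid genome are read by RNA polymerases other than polymerase II, mostly in long transcripts of several genes. On the deposited scale 28 of 69 plastid genes were called higher and 4 lower, against 24.5% and 15.9% of all probe sets, with a median of 0.22. Their median signal in Col-0 at 0 min was 10.18. Among probe sets with such signals of 8.45 to 13.11, 35.8% were called higher and 22.0% lower. Under hybridization control centring 7 were higher and 4 lower with a median of -0.05, and under Bacillus control centring 1 was higher and 39 lower with a median of -0.27. The like counts over all 22746 probe sets were 410 and 5438, and 237 and 17244. The largest value was that of rpoB, a subunit of the plastid-encoded RNA polymerase, from 4.37, 4.78 and 5.27 to 5.50, 5.66 and 6.06 (0.93 ± 0.20, adjusted p = 0.00134). Its arrays after lay above those before, but the spread before was 0.45 (SD). Next were atpI, of the ATP synthase, psbD, of photosystem II (0.74 ± 0.16), and rpoC2, another polymerase subunit (0.68 ± 0.17), whose arrays overlapped. The signal of psbD went from 8.28, 8.36 and 8.55 to 8.86, 9.11 and 9.44, in the same order of arrays as rpoB at both times. Plastid genes may thus vary together between arrays, which was not tested, and their calls are not separate observations.

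The 4 plastid genes that fell were rps18 (-0.54 ± 0.12), matK (-0.46 ± 0.10), rpl33 (-0.42 ± 0.12) and rps16 (-0.29 ± 0.10). Of these, rps18, rps16 and rpl33 encode ribosomal proteins and matK a maturase of introns. The first went from 9.47, 9.61 and 9.44 to 8.76, 9.04 and 9.11. The arrays of rps16 overlapped, and it was uncalled, at -0.19 to -0.31, without any 1 of 4 of the arrays, which were the second and the third at 0 min and the first and second at 60 min. Of 15 genes of the mitochondrial genome, 5 were higher and 3 lower, against 24.5% and 15.9% of all probe sets, with a median of 0.21. Under hybridization control centring 2 were higher and 3 lower with a median of -0.06, and under Bacillus control centring 1 and 8 with a median of -0.28. Over all 22746 probe sets these counts were 410 and 5438, and 237 and 17244. Higher were led by ccb382 (0.77 ± 0.11), matR (0.68 ± 0.16), nad7 (0.53 ± 0.12) and nad4 (0.50 ± 0.10). Lower were ccb452 (-0.56 ± 0.09), nad1 (-0.56 ± 0.11) and nad9 (-0.26 ± 0.08), the last uncalled without the third array at 0 min or the first or second at 60 min (-0.19 to -0.25). The probe sets of ccb452 and matR can cross-hybridize, and nad7 lay below the lower quartile before.

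Of 5 nuclear photosynthesis genes measured, of 34 listed, 1 was called, where 40.4% of all probe sets were. RCA, LHCB4.1, PSAN and LHCB4.3 lay between -0.14 and 0.03, and their arrays overlapped. LHCB4.2, a light-harvesting antenna protein gene of photosystem II, went from 12.02, 11.94 and 11.94 to 11.20, 11.21 and 11.47 (-0.67 ± 0.10, adjusted p = 3.49e-05). Under hybridization control centring 2 of the 5 were called lower, where 5438 of all 22746 probe sets were. Under Bacillus control centring all 5 were, where 17244 of all were, with a median of -0.51 and RCA and PSAN at -0.48 and -0.46.

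Nuclear RNA polymerases are built from many subunits, and 5 of 12 of their genes were called higher and 1 lower, against 24.5% and 15.9% of all probe sets, with a median of 0.27. The share called higher was 32.6% to 47.3% in groups of probe sets with Col-0 signals of 5.70 to 8.45 at 0 min. NRPB7, NRPB12 and NRPB6A lie in that range. NRPB7, of polymerase II, went from 6.12, 6.12 and 6.11 to 6.72, 6.80 and 6.79 (0.65 ± 0.09, adjusted p = 4.27e-05). NRPC1, of polymerase III, had 0.50 ± 0.11, NRPB12 0.46 ± 0.08 and NRPB6A 0.43 ± 0.08. Under Bacillus control centring the list's median was -0.22, and NRPB12 and NRPB6A had -0.03 and -0.05. Under that scaling 0 were called higher and 6 lower, where 237 and 17244 of all 22746 probe sets were. NRPD7 went the other way by far, from 5.81, 5.98 and 5.81 to 3.69, 3.83 and 3.61 (-2.16 ± 0.11, adjusted p = 1.25e-10), under every scaling run.

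All 3 cleavage and polyadenylation factors measured, of 21 listed, were called higher, where 24.5% of all probe sets were. Their median of 0.60 stayed above 0 under every scaling (lowest 0.11). Under hybridization control centring 1 was called higher, and under Bacillus control centring 0, where 410 and 237 of all 22746 probe sets were. FY, a 3′ end processing factor that acts in flowering control, went from 5.53, 5.57 and 5.39 to 6.10, 6.21 and 6.21 (0.68 ± 0.10, adjusted p = 7.35e-05). AT5G60940 had 0.60 ± 0.14, and AT4G25550 had 0.33 ± 0.09, or -0.16 under Bacillus control centring. Among 7 factors of RNA decay measured, of 25 listed, 2 were called higher and 2 lower, with a median of -0.07. Of all probe sets, 24.5% and 15.9% were. RRP41, a core subunit of the exosome, changed by -0.39 ± 0.10 and UPF3, of nonsense-mediated decay, by -0.29 ± 0.08. AT2G39260 had 0.47 ± 0.09 and AT3G46960 0.38 ± 0.10, which were -0.02 and -0.11 under Bacillus control centring. AT5G35910, AT1G54440 and AT1G76630 were uncalled, at 0.08, -0.10 and -0.07.

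Genes of vesicle traffic and autophagy were mostly above 0 on the deposited scale. Of 27 VPS, SEC and EXO genes 14 were called higher and 1 lower, with a median of 0.29, and of 11 autophagy genes 7 and 2, with a median of 0.31, against 24.5% and 15.9% of all probe sets. Under hybridization control centring 1 member of each was called higher, with 1 and 2 lower. Under Bacillus control centring both medians were below 0, at -0.20 and -0.18, with 1 member called higher in each and 11 and 4 called lower. Over all 22746 probe sets, 410 were higher and 5438 lower under the first scaling, and 237 and 17244 under the second. EXO84B, of the exocyst, went from 7.28, 7.09 and 7.24 to 7.98, 7.88 and 7.81 (0.69 ± 0.08, adjusted p = 6.59e-06). SNF7.2 (0.57 ± 0.08) and SNF7.1 (0.55 ± 0.10), which cut membranes in endosome sorting, and the exocyst gene SEC6 (0.54 ± 0.09) followed. SEC15A was the 1 that fell, from 4.31, 4.61 and 4.38 to 3.8, 3.70 and 3.73 (-0.69 ± 0.09), although its protein also belongs to the exocyst.

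ATG8 proteins coat the autophagosome membrane, and their genes went in both directions. ATG8E went from 7.02, 7.19 and 6.85 to 6.39, 6.25 and 5.89 (-0.84 ± 0.13, adjusted p = 5.78e-05), and ATG8F changed by -0.30 ± 0.08. ATG8H went from 5.88, 5.96 and 6.13 to 6.67, 6.68 and 6.74 (0.71 ± 0.09), ATG8D had 0.58 ± 0.09, ATG8B 0.57 ± 0.10 and APG8A 0.44 ± 0.07. Of these gains, only that of APG8A was below 0 under Bacillus control centring, at -0.05.

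Of 10 housekeeping genes, chosen elsewhere for steady levels, 5 were called higher and 1 lower, against 24.5% and 15.9% of all probe sets, with a median of 0.24. Under hybridization and Bacillus control centring 0 were called higher, and 1 and 6 lower, where 5438 and 17244 of all 22746 probe sets were lower. AT4G34270 had 0.61 ± 0.07, PEX4 (UBC21) 0.42 ± 0.09, AT5G46630 (AP2M) 0.40 ± 0.09 and AT2G28390 (MON1) 0.33 ± 0.07. Under Bacillus control centring the last 3 were -0.07, -0.09 and -0.16. AT5G15710 went from 4.72, 4.69 and 4.47 to 3.77, 3.46 and 3.95 (-0.90 ± 0.13, adjusted p = 3.45e-05). The control probe sets moved too, since the hybridization controls averaged 8.00 to 8.16 before and 8.15 to 8.47 after, and the Bacillus controls 3.63 to 3.73 before and 4.15 to 4.21 after. The latter lie below the median of the arrays, and whether Bacillus transcripts were added to these samples was not checked. The part of these control probe sets in the balance of small gains and losses was not tested.

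Losses were found mostly on better expressed probe sets. To keep the arrays compared out of the ranking, probe sets were split into 10 groups of equal size by their mean signal in Col-0 at 0 min. In the lowest group 0.132% were called and at least 2-fold lower, in the fifth 2.68% and in the highest 9.27%. Calls of any size were fewest in the lowest group, at 0.747% lower and 5.19% higher, but did not rise steadily. Lower calls peaked at 25.5% in the sixth group and were 22.0% in the highest. Higher calls peaked at 47.3% in the ninth and were 35.8% in the highest. From the sixth group up, 25.9% to 47.3% were called higher and 21.0% to 25.5% lower. The 24.5% and 15.9% set beside the lists include weak probe sets, and lists were not compared with probe sets of like signal. The lowest group, at signals of 1.87 to 2.51, left little room for a measured loss.

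**Figure D4:**
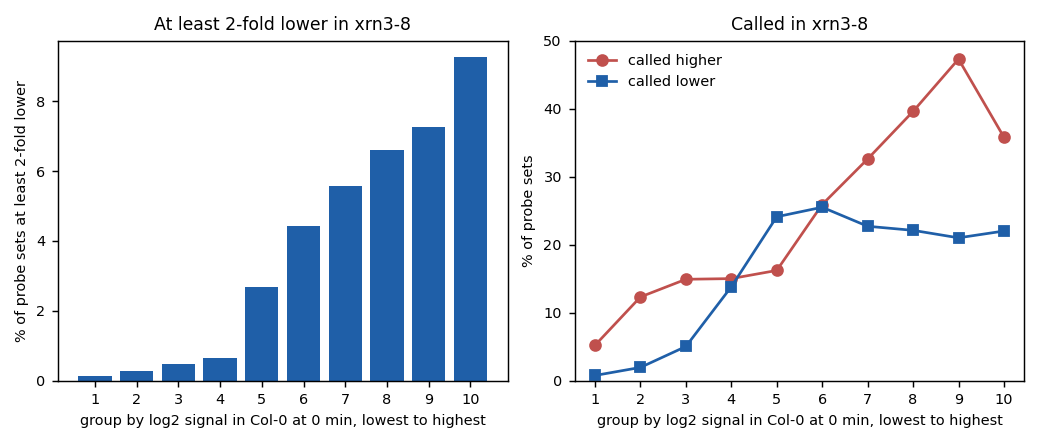
Left, percent of probe sets called and at least 2-fold lower in xrn3-8 in each of 10 groups of equal size ordered by log2 signal in Col-0 at 0 min; right, percent called higher (red circles) and lower (blue squares). The share with a 2-fold loss goes from 0.132% in the lowest group to 9.27% in the highest.

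The last question was where the response of xrn3-8 differed from that of Col-0, which had 10534 calls (46.3%) over the same 60 min. The 2 comparisons share no array. Across all probe sets the 2 log2 changes had a Pearson correlation of 0.84, given as a description, since probe sets are not independent replicates. Of probe sets called and at least 2-fold lower, 689 were so in both genotypes, or 81.1% of the 850 in xrn3-8 and 57.9% of the 1191 in Col-0 (5.24% of all). The probe sets with such a loss in Col-0 had a median change of -1.40 there and -1.11 in xrn3-8. Those with such a loss in xrn3-8 had a median of -1.44 in xrn3-8 and -1.57 in Col-0.

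The change itself differed between the genotypes (interaction, limma adjusted p under 0.05) for 1830 probe sets (8.05%). The difference, change in xrn3-8 minus change in Col-0, was above 0 for 1155 (5.08%) and below 0 for 675 (2.97%), or 63.1% above, and reached 2-fold for 182 (0.8%). That split was 38.4% of 607 calls under hybridization control centring, 21.3% of 2138 under Bacillus, 68.9% of 1764 under housekeeping and 54.6% of 1790 under median centring. Of the 1155, 988 were called lower in Col-0, where 20.1% of all probe sets were, and of those 527 were also called lower in xrn3-8 and 417 were not called there. Of the 675, 310 were called lower in xrn3-8, 76 of which were called higher in Col-0, and 439 were called higher in Col-0, where 26.3% of all were. Because the change in Col-0 is subtracted in the difference, these counts follow in part from how the probe sets were chosen.

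Most of the 12 largest losses in xrn3-8 were matched in Col-0. For AT5G61590 the change was -4.54 ± 0.14 in Col-0 (difference 0.07 ± 0.19, adjusted p = 0.897), and for STZ it was -2.56 ± 0.08 (0.01 ± 0.11, adjusted p = 0.977). AT3G19680 (-4.16 in Col-0) and AT5G07580 (-3.88 in Col-0) fell less in xrn3-8, by differences of 0.62 and 0.78. HAT2 fell by 2.53 in Col-0 and EXLA2 by 3.01, and their losses were likewise smaller in xrn3-8 (differences 0.75 ± 0.16 and 1.20 ± 0.15). For the other 10 of the 12 no difference was called, the nearest being AT4G10270 at -0.59 (adjusted p = 0.0558).

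All 6 named genes with the largest differences above 0 fell in Col-0, which the choice favours, since the change in Col-0 is subtracted. AT3G13760 went from 5.70, 5.67 and 5.96 to 6.06, 5.76 and 5.78 in xrn3-8 (0.09 ± 0.10, uncalled) and changed by -1.59 ± 0.10 in Col-0, a difference of 1.68 ± 0.14 (adjusted p = 2.69e-06). Its arrays overlapped in xrn3-8. AT4G32350 changed by -1.16 against -2.67 in Col-0, AT1G51090 by -0.66 against -2.05, AT1G22810 by -1.15 against -2.54, AT1G54050 by -0.25 against -1.61 and AT3G62590 by -0.36 against -1.71. AT1G54050 was uncalled in xrn3-8 but called at -0.43 without the first array at 0 min. AT3G62590, called with all arrays, was uncalled at -0.24 to -0.41 without any 1 of the 3 arrays at 0 min or the second at 60 min.

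Of genes with a symbol, ELC, of the ESCRT machinery, went from 7.98, 8.05 and 8.00 to 7.65, 7.57 and 7.91 (-0.30 ± 0.09) against -1.44 ± 0.09 in Col-0. Its loss in xrn3-8 was uncalled, at -0.23 to -0.28, without the second array at 0 min or the first or second at 60 min. KICP-02 changed by -0.91 against -2.05, and UGT85A2 by -1.23 against -2.20. XTH33, a wall enzyme gene, had 0.52 in xrn3-8 and -0.61 in Col-0. psbD had 0.74 ± 0.16 in xrn3-8 and -0.24 ± 0.16 in Col-0, where its mean before was 9.54 against 8.4 in xrn3-8 (difference 0.98 ± 0.23, adjusted p = 0.0138). Of the 69 plastid genes 4 had a called difference, all above 0, where 8.05% of all probe sets had one and 5.08% had one above 0. Those besides psbD, named after their values were seen, were psbC (0.77), rpl14 (0.68) and rps2 (0.54).

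All 6 named genes with the largest differences below 0 started from a higher mean in xrn3-8 than in Col-0. The choice favours this too, since the signal before cordycepin in xrn3-8 is subtracted in the difference and that in Col-0 is added. The largest difference of any probe set was on one that is unnamed here and was singled out after its value was seen. It went from 8.12, 7.99 and 7.97 to 4.05, 3.77 and 3.77 in xrn3-8 (-4.16 ± 0.11) and had a change of 0.00 ± 0.11 in Col-0, a difference of -4.16 ± 0.15 (adjusted p = 7.95e-11). AT5G01700 went from 7.56, 7.58 and 7.58 to 6.56, 6.61 and 6.58 in xrn3-8 (-0.99 ± 0.08), while in Col-0 it rose from a mean of 3.76 to 6.48 (2.72 ± 0.08). The directions were opposite, and the means after cordycepin were 6.58 and 6.48. AT2G18100 (-0.50 against 2.02), AT1G74400 (-0.96 against 1.62), AT4G27270 (-1.54 against 0.86) and AT1G19190 (-1.71 against 0.60) also had opposite signs in the 2 genotypes, whereas AT1G76170 had -2.45 in xrn3-8 and -0.11 in Col-0.

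NRPD7 fell by 2.16 in xrn3-8 and had -0.10 ± 0.11 in Col-0 (difference -2.06 ± 0.15, adjusted p = 4.92e-07). In Col-0 its mean was 3.07 before and 2.97 after, near the lower quartile of the arrays. BHLH101, a factor of the iron deficiency response, went from 3.97, 4.57 and 4.05 to 2.75, 2.95 and 2.62 (-1.42 ± 0.13) and had -0.34 in Col-0, with a starting mean of 2.88. MBAC1, a mitochondrial carrier of basic amino acids, had -1.12 against 0.16, and the expansin gene EXPA4 -0.40 against 0.65. EXPA4 was uncalled in xrn3-8, at -0.25, without the second array at 0 min. MAP1B, a methionine aminopeptidase gene, had -0.07 against 0.93, and PDF1.2, a defensin gene, 0.26 against 1.16, both uncalled in xrn3-8, although PDF1.2 was called at 0.33 without the second array at 60 min. Under each scaling and refit run, stricter thresholds aside, all 24 genes chosen for their difference kept its sign and its call. No refit left out a Col-0 array, so how far the differences rest on single Col-0 arrays was not tested.

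**Figure D5:**
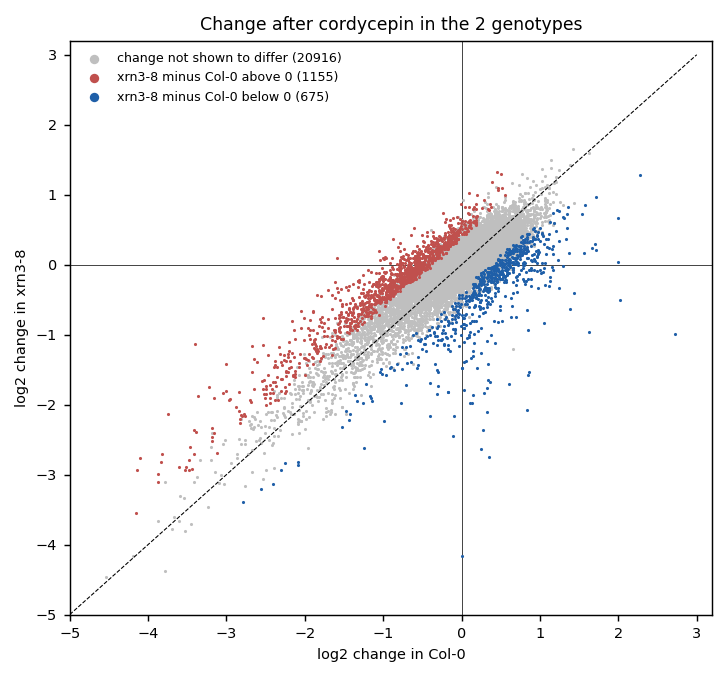
Log2 change in xrn3-8 against log2 change in Col-0, 1 point per probe set; red and blue points have a called difference above 0 (1155) and below 0 (675), and the dashed line marks equal change. The lowest blue point at a Col-0 change of 0 is the unnamed probe set with a change of -4.16.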

How the data were processed

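The log2 signals were deposited by the authors, 1 value per probe set and array, already normalized between arrays. The submitters' processing notes name affy 1.48.0 and limma 3.26.9. The method of normalization and background correction is not stated in the sources at hand, and no detection calls were used. Per the labels, 15 ug of total RNA were labelled as biotinylated cRNA, and the series' design text calls the 3 samples of a group biological replicates. The number of arrays limits the precision. The 64 Affymetrix control probe sets were left out of the tests.

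With limma 3.58.1 in R 4.3.3, a mean for each of the 4 groups was estimated from all 12 arrays by lmFit and eBayes (residual degrees of freedom 8, prior 7.964), and two-sided contrasts were adjusted by Benjamini-Hochberg over 22746 probe sets. The median SE was 0.0960, and 0.136 for the interaction. The procedure was tested on simulated data with independent noise, few changed probe sets and no shift between arrays. Since these data differ in that, the simulation does not bear on the effect of the scaling. Genes were named through the probe table and the reference gene table (TAIR10.1), which matched 13436 of 13513 single-gene probe sets and gave 1557 genes a symbol; where a gene has several probe sets, the one of highest mean signal stood for it.

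Named were the 12 largest losses and 12 largest gains among called genes whose arrays did not overlap, the next 10 and 10 with a symbol, the 6 and 6 largest differences from Col-0 with 6 and 6 more with a symbol, and, per list described, every member up to 8 measured or else the 4 largest called losses and 4 largest called gains. The members and lists were chosen with earlier results of these data known; some families were added from the annotation alone. Lists are described by counts and medians, with no set test, and cover only members with a named probe set. Measured were 7 of 41 immediate-early, 7 of 22 early auxin and 5 of 34 nuclear photosynthesis genes. Of the housekeeping genes 10 of 23 were measured, and of the root markers 5 of 10. No batch is given by the labels. Alternatives covered 4 scalings, the prior variance, array weights, filters, thresholds and the replicate number as a block. They also covered a fit of the 6 xrn3-8 arrays alone and leaving out each of these 6 in turn. No Col-0 array was left out.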

Additional observations from a re-analysis of the deposited data

Results flagged for a closer look

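The change after cordycepin differed between the genotypes by the test of the interaction for 1830 probe sets. Among the named genes, the following values are log2 changes in xrn3-8 less those in Col-0, each with a limma adjusted p under 0.05.

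Below 0, that is with a lower change in xrn3-8, were AT5G01700 (-3.71), AT1G74400 (-2.58), AT2G18100 (-2.51), AT4G27270 (-2.40), AT1G76170 (-2.34), AT1G19190 (-2.31) and NRPD7 (-2.06). MBAC1 (-1.28), BHLH101 (-1.08), EXPA4 (-1.04), MAP1B (-1.0), PDF1.2 (-0.90) and EXPA8 (-0.68) were also below 0.

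Above 0 were AT3G13760 (1.68), AT4G32350 (1.52), AT1G51090 (1.39), AT1G22810 (1.39), AT1G54050 (1.36), AT3G62590 (1.35), EXLA2 (1.20), ELC (1.14), KICP-02 (1.14) and XTH33 (1.13). Smaller differences above 0 were those of psbD (0.98), UGT85A2 (0.97), CML41 (0.86), AT2G37750 (0.80), AT5G07580 (0.78), HAT2 (0.75), CML42 (0.72), EXLA1 (0.70), BZIP28 (0.69) and AT3G19680 (0.62). LHCB4.2 (0.59), AT3G46960 (0.51), TBL41 (0.50), FY (0.49), WRKY47 (0.49), UGT76E2 (0.45) and ZAP1 (0.41) lay nearest to 0. CML41 and CML42 fell in Col-0 (-0.71 and -0.60) and were uncalled in xrn3-8. For TBL41, FY and WRKY47 the adjusted p was 0.0493, 0.0492 and 0.0484.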

How the results depend on the processing

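The count of called probe sets moved with the scaling and the threshold. In xrn3-8 it was 5848 under hybridization control centring, 17481 under Bacillus control centring and 14346 under median centring, against 9183 as deposited, and 895 when a 2-fold change was also required. The interaction had 607 under hybridization control centring, 771 at an adjusted p under 0.01 and 182 with a 2-fold difference, against 1830, and Col-0 had 6732 under hybridization control centring against 10534. Leaving out 1 xrn3-8 array at a time gave 7538 to 8509 calls in xrn3-8 and 1233 to 1704 for the interaction, the lowest in both cases without the second array at 0 min. The third array at 60 min, with the lowest weight, left 8509 and 1623 when omitted.

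Under Bacillus control centring 28 named genes changed sign with a call on at least one of the 2 scales, and PDF1.2 changed sign uncalled on both. Those uncalled as deposited were AT3G13760 (-0.40), AT5G35910 (-0.41), AT2G18010 (-0.42), AT4G25250 (-0.38), AT1G30870 (-0.47), GH9C1 (-0.46), CML41 (-0.33), CML42 (-0.36), CML43 (-0.42), WRKY42 (-0.39), WRKY47 (-0.26), RCA (-0.48) and PSAN (-0.46). Those called as deposited were AT2G39260 (-0.02), AT3G46960 (-0.11), AT4G25550 (-0.16), GH3.1 (-0.13), BZIP17 (-0.13), PEX4 (-0.07), AT5G46630 (-0.09), AT2G28390 (-0.16), UGT80B1 (-0.01), UGT71C1 (-0.02), bZIP44 (-0.11), EXPA21 (-0.16), APG8A (-0.05), NRPB12 (-0.03) and NRPB6A (-0.05). This centring lowers every change by the same amount, since these controls rose.

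Same-numbered xrn3-8 arrays of the 2 times did not deviate together (correlations -0.009, -0.041 and -0.014), and those of Col-0 had -0.086, 0.018 and 0.075. Between the genotypes at 60 min, same-numbered arrays had 0.114, 0.02 and 0.12, against -0.124 to 0.012 for unlike numbers. Whether the numbers mark samples handled together was therefore not settled. With the replicate number as a block, 9328 probe sets were called in xrn3-8, 1940 for the interaction and 10661 in Col-0, and all 162 named genes kept their direction and call. Signals near the lower quartile limit what can be measured of a loss.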

Other observations

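Tubulin genes, which encode the subunits of microtubules, were described in none of the comparisons above. All 7 measured were called higher in xrn3-8 on the deposited scale, where 24.5% of all probe sets were. They were TUB9 (0.49 ± 0.09), TUA1 (0.48 ± 0.10), TUB1 (0.45 ± 0.10), TUB6 (0.41 ± 0.07), TUB7 (0.35 ± 0.08), TUA6 (0.33 ± 0.07) and TUB5 (0.21 ± 0.08, limma adjusted p = 0.0496). The median of 0.41 was 0.14 with 0 called higher under hybridization control centring, and -0.08 with 1 called lower under Bacillus control centring. Of 13 ubiquitin-conjugating enzyme genes 7 were called higher and 2 lower, against 24.5% and 15.9% of all probe sets, with a median of 0.23. Under the same scalings the median was -0.04 and -0.26, with 0 called higher and 2 and 8 lower. Over all 22746 probe sets these scalings gave 410 and 237 higher, and 5438 and 17244 lower. The 2 lower ones were UBC37 (-0.44 ± 0.12) and UBC22 (-0.39 ± 0.08).

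Single members stood apart in families with a median near 0. Of 10 NETWORKED genes, whose proteins bind actin, 1 was called, NET4B at -1.48 ± 0.11, where 40.4% of all probe sets were called. NET3B, NET2C, NET1C and NET3C had means of 2.21 to 2.78 before, below the lower quartile of the arrays, which leaves little room for a loss. Of 15 IQ-domain genes, whose proteins bind calmodulin, 3 fell and 3 rose, against 15.9% and 24.5% of all probe sets. The lowest was IQD22 at -1.23 ± 0.09. These members were chosen after their values were seen.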
